A study of Mus musculus with 3 samples.

Results

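Endothelial cells gated as metaphyseal capillaries were described from droplet single-cell RNA-sequencing counts of mouse long bone. Members were chosen by detected transcripts: a cell was called endothelial with at least 2 of 5 genes (Pecam1, Cdh5, Kdr, Tie1 and Egfl7) detected, and capillary with at least 2 of 5 markers (Aplnr, Ramp3, Piezo2, Apln and Ednrb) detected, more of them than of 5 arterial markers (Gja4, Gja5, Sema3g, Egfl8 and Edn1) and more than of 5 sinusoidal markers (Stab2, Mrc1, Selp, Flt4 and Cd36), with fewer than 5 UMIs in total of Top2a, Mki67, Birc5, Cdk1 and Ccnb2. This gave 402 cells in replicate 1 and 307 in replicate 2, in all 709 of 2096 endothelial cells, of 4386 cells kept in the 2 metaphyseal libraries and of 15628 cells in the series. Arterial and sinusoidal cells, used for comparison, were gated in the same way from their own markers and numbered 90 and 66, and 478 and 394.

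The 2 metaphyseal libraries came from untreated C57BL/6 mice aged 3 weeks (C57BL/6J males, by the study's methods), from dissected metaphysis of long bone after depletion of lineage-positive, CD45+ and CD117+ cells. The other library held GFP+ cells sorted from Pdgfra-GFP reporter mice of the same strain and age, also untreated. It entered the comparisons only in an alternative that added it to each, and its own capillary-gated cells are described separately. The number of mice behind each library was not given in the sources used here. With the library as a block, p-values measure how far differences between populations varied between 2 libraries, not the spread of levels between libraries. That variation may be technical. The metaphyseal libraries held 25243314 and 22082735 UMIs, where a UMI (unique molecular identifier) counts a captured RNA molecule once, and barcodes with at most 100 UMIs, which come from near-empty droplets, held 8.51% and 9.92% of them. The labels call both libraries mesenchymal stromal cells, but 1172 of 2382 and 924 of 2004 kept cells passed the endothelial rule. The 2 libraries shared 0 barcodes among kept cells.

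In growing long bone, arteries feed a dense bed of capillaries that end in blind buds beneath the growth plate, and these drain into the wide, leaky sinusoids of the marrow. Metaphyseal capillaries are known for high levels of the surface proteins CD31 (Pecam1) and endomucin (Emcn) and for the bone-forming cells gathered around them, while arteries carry little endomucin and sinusoids less CD31. Apelin (Apln) is a peptide made by sprouting endothelial cells, Aplnr is its receptor, Ramp3 helps to form the receptor for adrenomedullin, Ednrb binds endothelins, and Piezo2 is a stretch-gated ion channel.

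The gate markers show what the rule picked, and are given as a description with no test. Levels are given as CPM, the count of a gene per 1000000 UMIs, of the summed cells of a population, in replicates 1 and 2. Aplnr stood at 1043 and 1058 CPM in capillary cells, 40.5 and 16.8 in arterial and 672 and 644 in sinusoidal cells, so sinusoidal cells carried it too. Ramp3 stood at 478 and 419, 53.5 and 48.2 and 43.6 and 49 CPM in the same order. Piezo2 (239 and 243 CPM) and Ednrb (233 and 216 CPM) did not exceed 52.6 CPM in arterial or sinusoidal cells. Apln was the least abundant, at 112 and 82.1 CPM. A UMI of Aplnr was seen in 97 and 95.8% of capillary cells, of Ramp3 in 89.1 and 87.9%, of Piezo2 in 70.9 and 75.2%, of Ednrb in 54.7 and 50.8% and of Apln in 35.8 and 29%. In non-endothelial cells, which should lack these genes, the shares were 1.82 and 2.41% for Aplnr and 0.744 and 0.463% for Apln, at median depths of 6561 and 6735 UMIs per cell against 6165 and 6417 in capillary cells. With each cell thinned to 2000 UMIs, the capillary shares were 84.6 and 82.4% for Aplnr and 14.9 and 12.7% for Apln.

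Members differed in how many markers they carried. In replicate 1, 59 cells had 2 capillary markers, 142 had 3, 152 had 4 and 49 had all 5, and in replicate 2 the numbers were 47, 122, 110 and 28. At least 1 sinusoidal marker was also detected in most members, and 102 and 57 had none, while 345 and 243 had no arterial marker. The sinusoidal markers left were mainly Flt4, at 193 and 202 CPM against 548 and 559 in sinusoidal cells, and Mrc1, at 74.9 and 67.7 against 682 and 625. A further 74 and 54 endothelial cells had at least 2 capillary markers but as many sinusoidal ones and were not members. Just outside the threshold, 6 and 10 endothelial cells had 1 capillary marker and none of the other lists, with Emcn at 1406 and 581 CPM, and just inside, cells with exactly 2 capillary markers had Emcn at 2325 and 1996 CPM. Cells with 3 or more had it at 2243 and 2072 CPM, close to the cells with 2.

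Capillary cells made up 34.3% (exact 95% binomial interval 31.6% to 37.1%) of endothelial cells in replicate 1 and 33.2% (30.2% to 36.4%) in replicate 2, intervals that overlap and cover counting error only. The share was 29.3% and 28.1% when 3 markers were asked for, 30.1% and 31.5% with every cell thinned to 2000 UMIs, and 38.4% and 37.2% with cycling cells kept.

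Emcn, which took no part in the rule but was proposed as a marker of these cells, was highest in them. It stood at 2252 and 2063 CPM in capillary, 770.0 and 677 in arterial and 1348 and 1293 in sinusoidal cells. In non-endothelial cells it was 7.61 and 7.06 CPM. The mean was 2158 ± 134 CPM (SD, n = 2 libraries) in capillary cells against 723 ± 66.0 and 1320.4 ± 39.3, with no overlap between populations. On summed counts, edgeR's quasi-likelihood test with the library as a block gave log2 fold change 1.50 ± 0.06 (SE), adjusted p = 3.8e-07 against arterial cells and log2 fold change 0.68 ± 0.06 (SE), adjusted p = 2.9e-05 against sinusoidal cells. Plvap, which forms the diaphragms of fenestrae, stood at 1967 and 1884 CPM in capillary, 1131 and 932 in arterial and 1754 and 1717 in sinusoidal cells, and passed the test against arterial cells (adjusted p = 2.1e-05) but not against sinusoidal cells (adjusted p = 0.2). Pecam1, a gene of the rule, was near-equal in capillary (851 and 793 CPM) and arterial cells (913 and 880.0) and lower in sinusoidal cells (632 and 629). Beyond the genes of the rule, the label of the population rests on Emcn, and position in the bone was not measured in these counts.

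**Figure D1:**
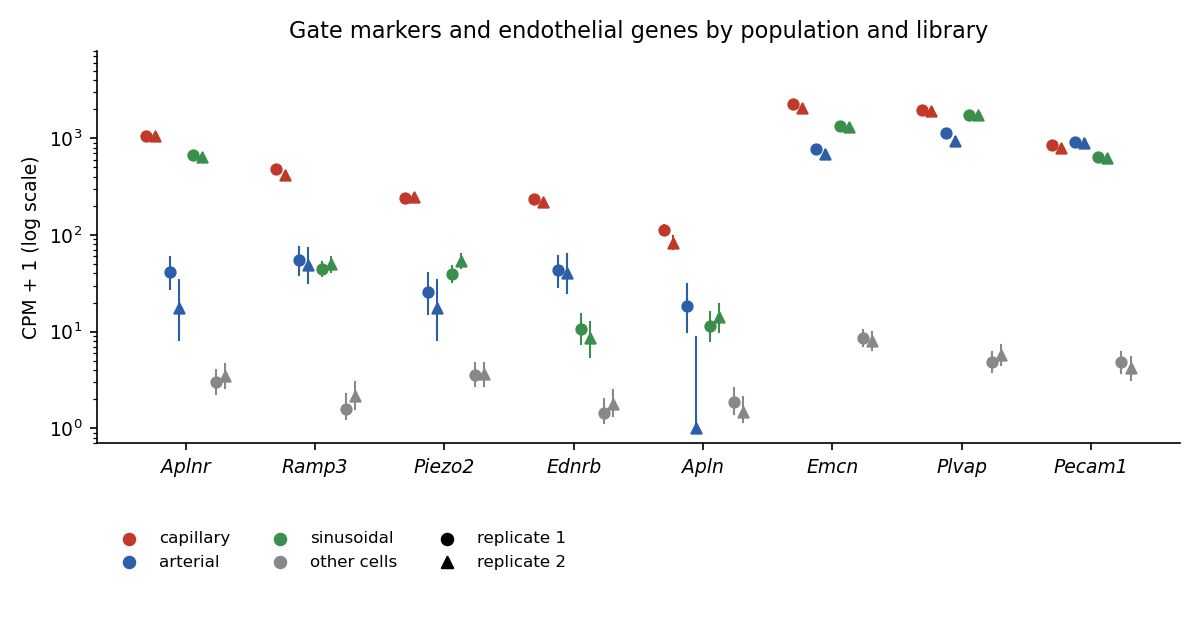
Level of 5 capillary gate markers, Emcn, Plvap and Pecam1 as CPM plus 1 (log scale) by population (circles replicate 1, triangles replicate 2, lines exact 95% Poisson intervals of the count). Emcn lies between 2063 and 2252 CPM in capillary cells, above arterial and sinusoidal cells in both libraries.

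Libraries agreed closely for most genes. Of 6393 genes at a mean of 20 CPM or more in capillary cells, 34 (0.532%) differed over 2-fold between replicates. They included cartilage and bone genes, higher in replicate 2 (Col2a1, Comp, Ibsp and Spp1), and Adipoq, Lpl and Cxcl12, higher in replicate 1. Col2a1, the main cartilage collagen, stood at 20.2 and 718 CPM, and the richest cell of each library held 65.4 and 98.5% of its UMIs. For Comp, another cartilage matrix gene, 1 cell held 98.5% of the UMIs in replicate 2. Summed over the 5 chondrocyte markers the level was 59.8 and 1030 CPM, over the 9 stromal markers 499 and 902 CPM, led by Col1a1, over the 6 osteoblast markers 93.1 and 386, and over the 6 erythroid markers 108 and 99.9. The sums were 50.1 and 80.1 CPM over the myeloid markers, 86.5 and 70.2 over the mural, 59.4 and 55.9 over the megakaryocyte, 5.43 and 3.96 over the lymphatic and 1.16 and 1.48 over the B lymphoid markers. In the 5 richest cells lay 79.2% and 97.9% of the chondrocyte-marker UMIs. Some of the sums used for comparison stood apart: arterial cells of replicate 1 had stromal markers at 9037 CPM (293 in replicate 2), those of replicate 2 erythroid markers at 24125 CPM (110 in replicate 1), and sinusoidal cells of replicate 2 stromal markers at 7052 CPM. Chondrocyte markers stood at 11.6 and 35.6 CPM in arterial and 419.6 and 303 in sinusoidal cells, so sinusoidal cells held more than capillary cells in replicate 1 and less in replicate 2. Against the mean of both populations, Col2a1 and Col9a1 of that list were called higher in capillary cells. Of the 8 myeloid markers, C1qa had 0 UMIs in capillary cells and Ptprc 0 and 2, and Ppbp and Gp9 of the megakaryocyte list and Pdpn and Reln of the lymphatic list had 0. On the same lists Pf4 had 101 and 76 UMIs in 63 and 49 capillary cells, Itga2b 52 and 37 UMIs, and Prox1 14 and 8. Pf4 had 0 arterial UMIs and was lower in capillary than in sinusoidal cells, where it stood at 69.4 and 60.1 CPM. Itga2b was higher than in sinusoidal cells and did not pass against arterial cells. Kcnj8, on the mural list, had 178 and 110 UMIs in capillary cells spread over 88 and 59 cells, while Acta2 and Myh11 of that list had at most 1 UMI in a library. Scrublet called 8 and 5 capillary cells as doublets. Each comparison was therefore repeated without endothelial cells above the 90th percentile of such markers, which took out 16 and 11 capillary, 3 and 4 arterial and, a larger share, 69 and 53 sinusoidal cells.

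A first comparison asked which genes set capillary cells apart from arterial and sinusoidal cells together, each population counting equally. Of 11039 genes tested, 1511 (13.7%) passed an adjusted p of 0.05, of which 797 (7.22%) were higher and 714 (6.47%) lower in capillary cells. The DESeq2 Wald test called 734, and edgeR on cells thinned to 2000 UMIs called 823 of 8018 genes tested. The 25 genes of the rule were left out. Since the same cells were gated and compared, these tests describe the gated populations and are not independent evidence that they are distinct.

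Lrrc55, an accessory subunit of potassium channels (chr2:85162334-85197197, minus strand in GRCm38), stood at 119 and 141 CPM in capillary, 4.33 and 2.1 in arterial and 12.5 and 14.2 in sinusoidal cells (log2 fold change 4.19 ± 0.16 (SE), adjusted p = 1.4e-06). It was detected in 42 and 49.8% of capillary cells. The groups did not overlap, but genes named here had to be higher in capillary cells than in both other populations in each library. Kcne3, another potassium channel subunit (chr7:100176502-100184869, plus strand), stood at 135 and 96.4 CPM in capillary, 11.6 and 14.7 in arterial and 13.2 and 12.6 in sinusoidal cells (log2 fold change 3.13 ± 0.16 (SE), adjusted p = 4e-06). Its UMIs came from fewer cells, 19.4 and 18.9% of the capillary cells. Ptn, which encodes the heparin-binding growth factor pleiotrophin (chr6:36714929-36810220, minus strand), stood at 363 and 318 CPM in capillary, 91 and 16.8 in arterial and 8.71 and 8.3 in sinusoidal cells (log2 fold change 3.92 ± 0.24 (SE), adjusted p = 1.5e-05), with arterial replicates far apart. Vwa1, a matrix protein, stood at 350.4 and 267 CPM in capillary, 95.4 and 107 in arterial and 38.3 and 40.3 in sinusoidal cells and was seen in 68.7 and 65.5% of capillary cells.

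Less abundant genes followed. Flrt2, a transmembrane protein of cell guidance, stood at 112 and 106 CPM in capillary, 7.22 and 6.29 in arterial and 55.1 and 64.4 in sinusoidal cells, so arterial cells were lowest. Rflna, a filamin-binding protein, stood at 43.1 and 49.4 CPM in capillary, 5.78 and 14.7 in arterial and 5.58 and 3.56 in sinusoidal cells. Ralgps2, an activator of the small GTPase Ral, stood at 51.6 and 48.5 CPM in capillary, 10.1 and 2.1 in arterial and 15.3 and 18.6 in sinusoidal cells. Ackr2, a scavenging chemokine receptor, stood at 42.7 and 40 CPM in capillary, 1.44 and 0 in arterial and 31.7 and 33.6 in sinusoidal cells, so that its place on the list came from the arterial side and it did not pass the test against sinusoidal cells (adjusted p = 0.19). Nts, which encodes neurotensin, stood at 55.9 and 57.8 CPM in capillary, 43.3 and 18.9 in arterial and 2.79 and 0 in sinusoidal cells, was seen in 7.71 and 5.54% of capillary cells, and did not pass against arterial cells (adjusted p = 0.23). The rule also named Snorc, a cartilage proteoglycan, at 8.92 and 135 CPM in capillary, 0 and 2.1 in arterial and 2.44 and 8.69 in sinusoidal cells, but 1 cell of each library held 82.6 and 96.3% of its capillary UMIs. Near-empty droplets held it at 384 and 334 CPM, and without marker-rich cells it was too rare to be tested.

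Among the genes named as lower was Depp1, a target of FOXO transcription factors, at 22.5 and 18.3 CPM in capillary, 312 and 348 in arterial and 199 and 197 in sinusoidal cells (log2 fold change -3.68 ± 0.13 (SE), adjusted p = 1.2e-06). Pdzd2, a PDZ-domain protein, stood at 7.37 and 2.97 CPM in capillary, 76.6 and 111 in arterial and 50.2 and 49 in sinusoidal cells. Mgst1, a membrane-bound glutathione transferase, stood at 30.7 and 10.9 CPM in capillary, 88.1 and 103 in arterial and 431 and 332 in sinusoidal cells. The chemokine Cxcl1 stood at 3.1 and 2.97 CPM in capillary, 59.2 and 31.4 in arterial and 20.6 and 12.2 in sinusoidal cells. Bmx and Pcsk5 were mainly arterial genes and Clca3a1 and Rgs4 mainly sinusoidal ones, and all 4 were at 2.47 CPM or less in capillary cells. The leukocyte genes Cd52 (1.16 and 0.494 CPM in capillary, 1.44 and 98.5 in arterial and 14.3 and 22.1 in sinusoidal cells) and Chil3 (1.16 and 0.494 CPM in capillary, 2.89 and 8.38 in arterial and 19.2 and 106 in sinusoidal cells) were also named. A single cell held all 47 Cd52 UMIs of arterial replicate 2 and 262 of the 269 Chil3 UMIs of sinusoidal replicate 2, and the myeloid markers moved with them, at 46.2 and 1339 CPM in arterial and 1507 and 4841 CPM in sinusoidal cells. Neither could be tested without marker-rich cells.

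**Figure D2:**
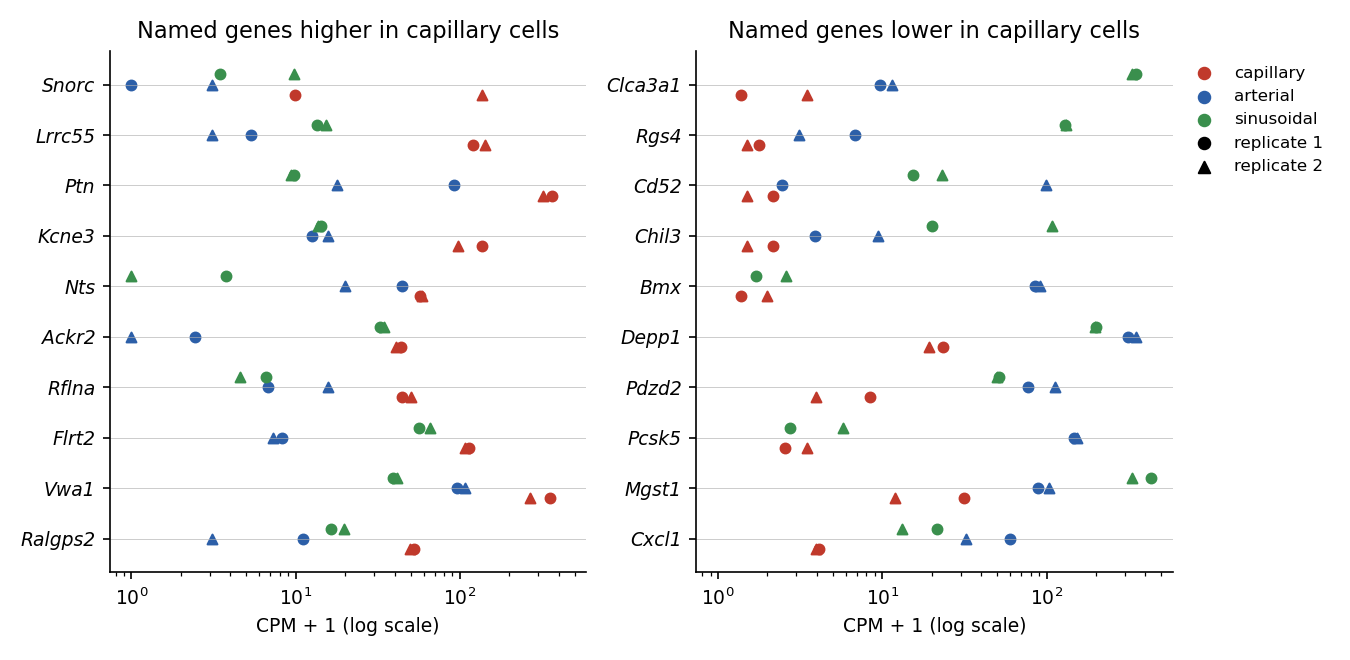
Levels as CPM plus 1 (log scale) of the 10 genes named as higher (left) and the 10 named as lower (right) in capillary cells than in arterial and sinusoidal cells. Circles are replicate 1 and triangles replicate 2, and apart from Snorc the capillary points of each gene on the left lie close together.

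Against arterial cells alone, 1798 genes (16.3%) passed, 828 (7.5%) higher and 970 (8.79%) lower in capillary cells, and against sinusoidal cells 2591 (23.5%) passed, 1208 (10.9%) higher and 1383 (12.5%) lower. The median over all tested genes was 0.02 and -0.01 on the log2 scale. The DESeq2 Wald test called 1048 and 1004 genes, and edgeR on thinned cells 917 and 1518. Without marker-rich cells the calls numbered 2350 and 3408, and 2223 against the mean of both. Both comparisons share the capillary sums, so their values are set side by side and not counted against each other. Gpr182, an atypical chemokine receptor, had 0 UMIs in arterial cells. Its level was 86.5 and 90.5 CPM in capillary and 364 and 342 in sinusoidal cells, which makes it at least 34.4-fold higher in capillary than in arterial cells (floor of 3 UMIs over both libraries). Gatm, an enzyme of creatine synthesis, stood at 83.4 and 67.2 CPM in capillary, 1.44 and 0 in arterial and 115 and 107 in sinusoidal cells, a ratio of 89.2 to arterial cells with a counting interval of 15.9 to 3535 from 1 arterial UMI. Ang, the ribonuclease angiogenin, stood at 74.5 and 50.9 CPM in capillary, 2.89 and 0 in arterial and 126 and 119 in sinusoidal cells. Il13ra2, a decoy receptor for interleukin-13, stood at 50.1 and 51.9 CPM in capillary, 2.89 and 0 in arterial and 166 and 141 in sinusoidal cells. The adhesion receptor Adgrg3 stood at 66 and 65.3 CPM in capillary, 2.89 and 2.1 in arterial and 117 and 111 in sinusoidal cells. These genes set capillary cells apart from arteries but were higher still in sinusoidal cells. Cdh4 and Sele, at 13.2 and 11.4 and 6.6 and 4.45 CPM, also had 0 arterial UMIs and were at least 4.83-fold and 2.2-fold higher than arterial cells.

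The genes named as lower than in arterial cells were at low levels in capillary cells. Nebl, a cytoskeletal protein, stood at 0 and 1.98 CPM against 114 and 119 in arterial cells. The kinase Bmx stood at 0.388 and 0.989 against 83.8 and 90.1, the sialyltransferase St8sia6 at 1.16 and 0 against 83.8 and 75.4, and the proprotein convertase Pcsk5 at 1.55 and 2.47 against 146 and 153. Stmn2, a regulator of microtubules, fell from 653 and 652 CPM in arterial cells to 17.1 and 17.3 (log2 fold change -5.31 ± 0.14 (SE), adjusted p = 2e-08). Car7, Dkk2 and Slc45a4 were at 2.33 and 5.93, 2.33 and 5.44 and 3.49 and 3.96 CPM in capillary cells. In arterial cells the levels were 150.3 and 174, 105 and 157 and 111 and 98.5 CPM. The chemokine receptor Cxcr4 stood at 3.49 and 1.48 against 70.8 and 105 CPM.

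Against sinusoidal cells, Ptn (log2 fold change 5.31 ± 0.31 (SE), adjusted p = 2.8e-06) stood out by its level, and Nts, given above, was also named. Cdh13, a cadherin without a cytoplasmic domain, stood at 86.5 and 107 CPM against 5.23 and 8.3 in sinusoidal cells. Plat, the tissue plasminogen activator, stood at 96.2 and 83.6 against 6.62 and 7.9, the ubiquitin ligase Rnf152 at 31.4 and 28.2 against 1.74 and 3.95, and the transcriptional repressor Prdm1 at 22.1 and 29.7 against 2.44 and 2.37. Cdh13, Rnf152 and Prdm1 were at higher levels in arterial than in capillary cells in both libraries, as were Dkk2, Stmn2 and the phosphatase Ptprr. The arterial level of Plat was 89.6 and 105 CPM. Ubd, a ubiquitin-like modifier, was at 367 and 275 CPM in sinusoidal and 0.776 and 0.494 in capillary cells. Lipg, the endothelial lipase, stood at 201 and 213 and 0.388 and 0.989. With 3 capillary UMIs each, the ratios were 497 (counting interval 169.8 to 2412) and 317 (108 to 1540). Ackr1, a chemokine-binding protein of venules, stood at 329 and 263 CPM in sinusoidal and 2.33 and 1.48 in capillary cells. Clca3a1, Rgs4, Ston2, Cxadr, Cyp4b1 and Adgrg6 lay between 64.5 and 352 CPM in sinusoidal cells and at no more than 6.21 CPM in capillary cells.

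For many genes of vessel identity the capillary level lay between those of the other populations. List counts against arterial and sinusoidal cells, here and below, are to be set against the shares of all tested genes. These were 7.5% higher and 8.79% lower against arterial cells, and 10.9% and 12.5% against sinusoidal cells. Counts of 1 or 2 members are read as no result about a list. The lists were chosen with earlier results of these data known, and arterial and sinusoidal cells were gated by their own markers. The list counts are therefore descriptions and not independent evidence of vessel identity. Of 20 arterial genes that the rule did not use, 0 were higher and 18 lower than in arterial cells (median log2 fold change -2.44) and 11 higher and 4 lower than in sinusoidal cells (median 1.28). Fbln5, an elastic fibre protein, stood at 30.7 and 23.7 CPM in capillary, 572 and 585 in arterial and 62 and 50.6 in sinusoidal cells, so it was lowest in capillary cells. Sox17, a transcription factor of arteries, stood at 110.2 and 92.9 CPM in capillary, 569 and 518 in arterial and 47.1 and 59.7 in sinusoidal cells. Of 15 further sinusoidal genes, 7 were higher and 2 lower than in arterial cells (median log2 fold change 2.14) and 0 higher and 15 lower than in sinusoidal cells (median -2.62). With genes at 0 UMIs set to their bound, the median against arterial cells was 0.998. Stab1, a scavenger receptor, stood at 394 and 398 CPM in capillary, 80.9 and 90.1 in arterial and 819.8 and 798 in sinusoidal cells. Tfpi, an inhibitor of coagulation, stood at 402 and 400.0 CPM in capillary, 91 and 98.5 in arterial and 2442 and 2227 in sinusoidal cells. Maf, a transcription factor of sinusoids, stood at 141 and 169 CPM in capillary, 14.4 and 14.7 in arterial and 215 and 228 in sinusoidal cells, much nearer to the sinusoidal level. The adhesion molecule Vcam1 did not follow this order, at 76.1 and 44 CPM in capillary, 99.7 and 132 in arterial and 1354 and 1277 in sinusoidal cells. Of 5 venous genes, 2 were higher and 1 lower than in arterial cells (median log2 fold change 2.33) and 0 higher and 3 lower than in sinusoidal cells (median -1.08). With Ackr1, at 0 arterial UMIs, set to its bound, the median against arterial cells was 0.356. Nr2f2, the factor of venous fate, stood at 220.0 and 242 CPM in capillary, 36.1 and 27.2 in arterial and 482 and 478 in sinusoidal cells (log2 fold change 2.76 ± 0.15 (SE), adjusted p = 2.3e-06, against arterial cells).

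**Figure D3:**
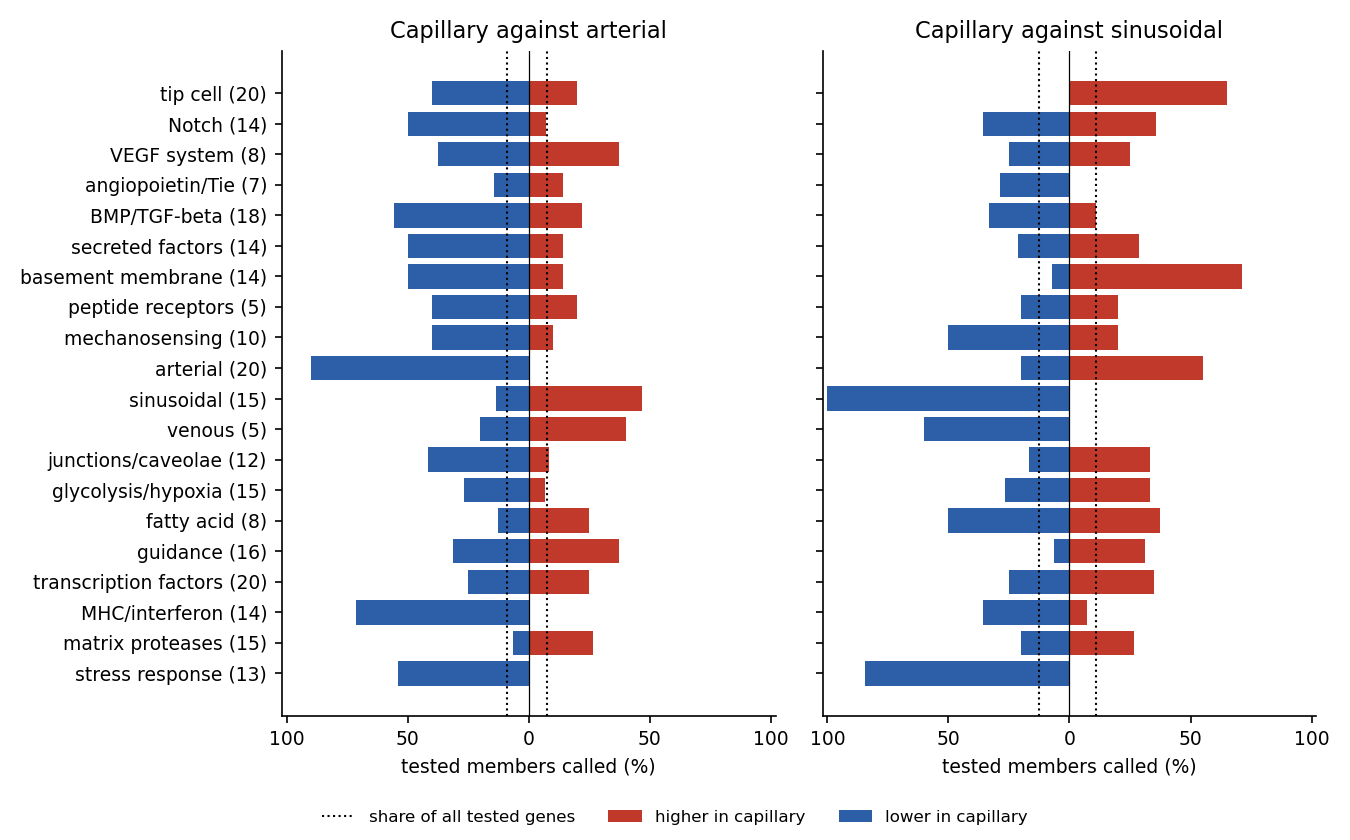
Percent of the tested members of 20 gene lists (number tested in brackets) called higher (red, right) or lower (blue, left) in capillary cells against arterial cells (left panel) and sinusoidal cells (right panel). Dotted lines mark the percent of all tested genes called in that direction, and every tested member of the sinusoidal list was lower than in sinusoidal cells. The lists were chosen with earlier results of these data known.

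Tip cells lead a sprouting vessel. Of 20 tip cell genes, 4 were higher and 8 lower than in arterial cells (median log2 fold change -0.17) and 13 higher and 0 lower than in sinusoidal cells (median 0.84). Kcne3, above, had the highest positive fold change of the list against arterial cells and against sinusoidal cells. Rgcc, a cell cycle regulator, stood at 513 and 452 CPM in capillary, 201 and 184 in arterial and 239.8 and 194 in sinusoidal cells. Fscn1, which bundles actin in filopodia, stood at 249 and 265 CPM in capillary, 85.2 and 48.2 in arterial and 187 and 173 in sinusoidal cells. Cd34, a surface sialomucin, stood at 986 and 978 CPM in capillary, 919 and 876 in arterial and 171 and 209 in sinusoidal cells, and passed the test against sinusoidal but not arterial cells (adjusted p = 0.76). By contrast Esm1, Cxcr4 and Unc5b, often used as tip cell markers, were highest in arterial cells. Esm1 stood at 31.8 and 15.8 CPM in capillary, 283 and 233 in arterial and 25.1 and 18.6 in sinusoidal cells. Unc5b, a netrin receptor, stood at 19.8 and 32.6 CPM in capillary, 303 and 331 in arterial and 6.62 and 7.9 in sinusoidal cells. Esm1 was also at 467 CPM in non-endothelial cells of replicate 1. Igfbp3, a binding protein of insulin-like growth factors, stood at 223 and 199 CPM in capillary, 1328 and 1486 in arterial and 32.8 and 43.1 in sinusoidal cells. Angpt2 was at 4.66 and 2.47 CPM in capillary cells and passed neither test.

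Notch signalling, which sets tip against stalk cells and artery against vein, gave another mixed list. Of 14 tested genes, 1 was higher and 7 lower than in arterial cells (median log2 fold change -0.62) and 5 higher and 5 lower than in sinusoidal cells (median -0.16). Among the ligands, Dll4 stood at 57 and 52.4 CPM in capillary, 205 and 205 in arterial and 64.1 and 59.3 in sinusoidal cells, lower than in arterial cells (log2 fold change -1.97 ± 0.12 (SE), adjusted p = 4.1e-06) and not past the test against sinusoidal cells (adjusted p = 0.24). Dll1 had the opposite pattern, at 65.6 and 75.6 CPM in capillary, 20.2 and 27.2 in arterial and 44.6 and 36 in sinusoidal cells, and was higher than in both (log2 fold change 1.53 ± 0.26 (SE), adjusted p = 0.0026, and log2 fold change 0.77 ± 0.15 (SE), adjusted p = 0.0044). Jag1 stood at 27.5 and 25.7 CPM in capillary, 92.5 and 155 in arterial and 40.1 and 50.6 in sinusoidal cells and was lower than in both. Jag2 stood at 36.1 and 42 CPM in capillary, 150.3 and 178 in arterial and 6.27 and 5.14 in sinusoidal cells, with no overlap and each step past the test. The receptors Notch1 and Notch4 were at 145 and 135 and 88.5 and 85.5 CPM in capillary cells and highest in arterial cells, at 239.8 and 264 and 205 and 191. Notch2 had at most 11.5 CPM in these populations, and Notch3 was too rare to be tested. Of the target genes, Hey1 stood at 10.5 and 8.9 CPM in capillary, 131 and 149 in arterial and 4.18 and 1.19 in sinusoidal cells. Hes1 stood at 363 and 443 CPM in capillary, 282 and 331 in arterial and 643 and 673 in sinusoidal cells, where sinusoidal cells were highest. Among these tested ligands and receptors, Dll1 was the one with its highest level in capillary cells in both libraries.

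The basement membrane separates an endothelium from its surroundings. Of 14 of its genes, 2 were higher and 7 lower than in arterial cells (median log2 fold change -0.26) and 10 higher and 1 lower than in sinusoidal cells (median 0.81). Col18a1 and Col15a1, collagens of vessel basement membranes, were higher than in sinusoidal cells. Col18a1 stood at 387 and 433 CPM in capillary, 1409 and 1389 in arterial and 48.4 and 51 in sinusoidal cells. Col15a1 stood at 148 and 162 CPM in capillary, 202 and 149 in arterial and 19.9 and 17.8 in sinusoidal cells (log2 fold change 3.00 ± 0.15 (SE), adjusted p = 8.1e-07, against sinusoidal cells). Col4a1, the most abundant collagen of the list, stood at 2533 and 2589 CPM in capillary, 2638 and 3168 in arterial and 1393 and 1428 in sinusoidal cells. The laminin chains Lamb1 and Lama4 and the linker Nid2 stood at 188 and 198, 185 and 195 and 239 and 256 CPM in capillary cells. In sinusoidal cells the levels were 50.5 and 48.6, 61.7 and 75.5 and 48.4 and 52.6 CPM. Nid1 ran the other way, at 387 and 358 CPM in capillary, 215 and 207 in arterial and 628 and 607 in sinusoidal cells. Of the laminins, Lamb2 had the lowest fold change against arterial cells, at 55.9 and 61.3 against 143 and 214 CPM.

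**Figure D4:**
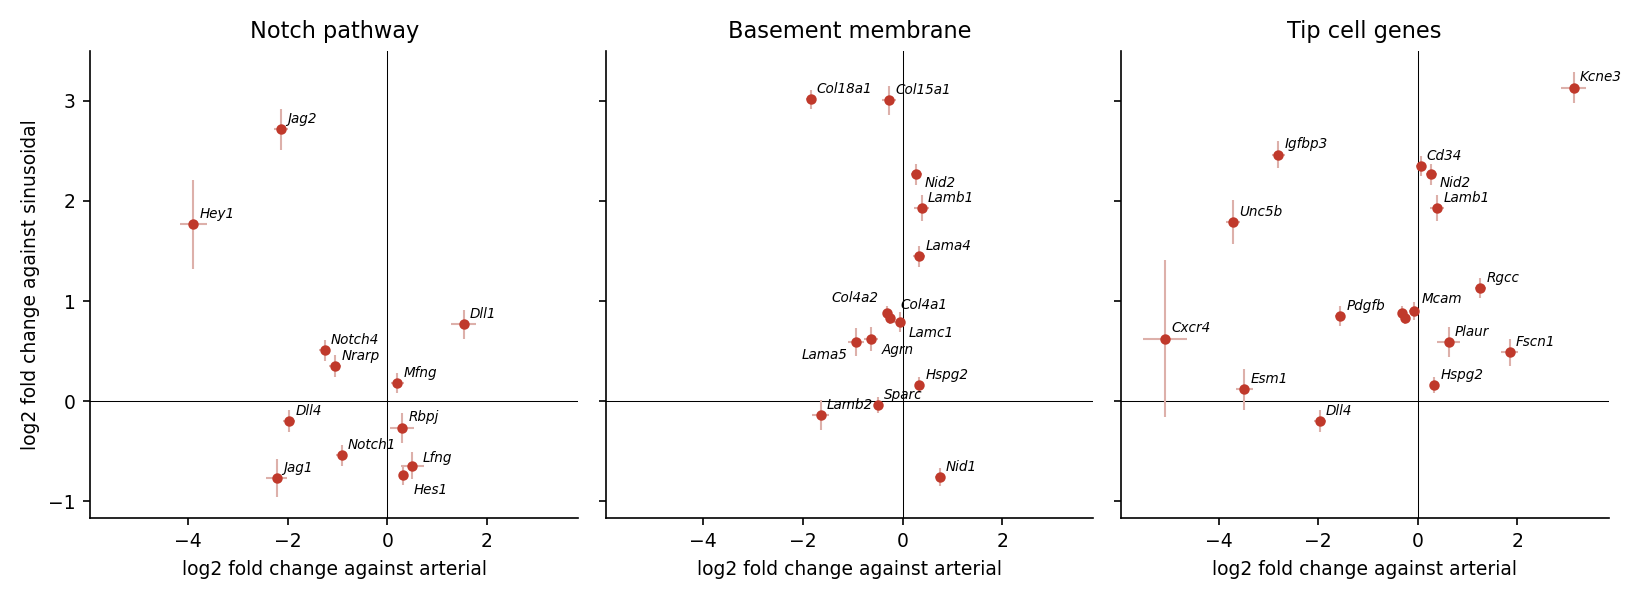
Log2 fold change of capillary against arterial cells (horizontal axis) and against sinusoidal cells (vertical axis), with SE, for Notch, basement membrane and tip cell genes at a mean of 20 CPM or more. Most basement membrane genes lie above the horizontal line. Of 14 tested, 7 were called lower and 2 higher than in arterial cells, so they lie on both sides of the vertical line. Kcne3 lies furthest to the upper right.

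VEGF drives the growth of vessels. In the VEGF list, which holds ligands, receptors and co-receptors, 3 were higher and 3 lower than in arterial cells (median log2 fold change -0.11) and 2 higher and 2 lower than in sinusoidal cells (median 0.12) among 8 genes. The decoy receptor Flt1 stood at 1136 and 1170.2 CPM in capillary, 780.2 and 809 in arterial and 850.4 and 908 in sinusoidal cells, a small rise past both tests. Of the co-receptors Nrp1 was highest in arterial cells (771 and 721 CPM against 478 and 496), and Nrp2 and Plxnd1 were higher than in arterial cells, at 375 and 365 against 91 and 46.1 and 653 and 666 against 218 and 230.5 CPM. The lymphatic growth factor Vegfc stood at 62.9 and 75.6 CPM in capillary, 348 and 337 in arterial and 22.3 and 16.2 in sinusoidal cells. Among 7 angiopoietin and Tie genes, 1 was higher and 1 lower than in arterial cells (median log2 fold change -0.89) and 0 higher and 2 lower than in sinusoidal cells (median -0.56), where 7.5% and 8.79% of all tested genes were called against arterial and 10.9% and 12.5% against sinusoidal cells, so these counts of 1 or 2 are read as no result about the list. The receptor Tek stood at 289 and 308 CPM in capillary, 96.8 and 101 in arterial and 338 and 360.0 in sinusoidal cells, its phosphatase Ptprb at 485 and 464 CPM in capillary, 1014 and 1035 in arterial and 690.1 and 728 in sinusoidal cells. Angptl4 stood at 60.1 and 32.1 CPM in capillary, 37.6 and 31.4 in arterial and 654 and 591 in sinusoidal cells. Of 5 further genes of the apelin, endothelin and adrenomedullin systems, 1 was higher and 2 lower than in arterial cells (median log2 fold change 0.07) and 1 higher and 1 lower than in sinusoidal cells (median -0.24). Calcrl, the partner of Ramp3, stood at 248 and 274 CPM in capillary, 82.3 and 71.2 in arterial and 246 and 220.1 in sinusoidal cells. Ramp2 stood at 1294 and 1150.0 CPM in capillary, 1139.9 and 1077 in arterial and 799 and 777 in sinusoidal cells. Adm itself was at 5.04 and 3.46 CPM in capillary cells.

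Endothelial cells also signal to the bone and blood cells around them, and more of these genes were lower than higher against arterial cells. Of 14 secreted or membrane-bound factors, 2 were higher and 7 lower than in arterial cells (median log2 fold change -1.20) and 4 higher and 3 lower than in sinusoidal cells (median -0.51). Cxcl12, the chemokine that holds blood progenitors, stood at 391 and 191 CPM in capillary, 1971 and 2910.3 in arterial and 533 and 377 in sinusoidal cells. A single capillary cell held 24.5 and 21.4% of its UMIs, and against sinusoidal cells it did not pass (log2 fold change -0.69, adjusted p = 0.11 by edgeR). With thinned cells its direction turned and it passed as higher in capillary cells (log2 fold change 0.69, adjusted p = 0.00028). Kitl, the ligand of the stem cell receptor Kit, stood at 158 and 139 CPM in capillary, 380.0 and 402 in arterial and 49.1 and 40.7 in sinusoidal cells. Efnb2, an arterial ephrin, stood at 122 and 139 CPM in capillary, 407 and 482 in arterial and 29.6 and 32 in sinusoidal cells. Pdgfb, which recruits mural cells, was intermediate too, at 110.2 and 121 CPM in capillary, 308 and 344 in arterial and 62.4 and 63.2 in sinusoidal cells, while Pdgfa, at 65.2 and 59.8 CPM in capillary, 52 and 56.6 in arterial and 16.7 and 17.4 in sinusoidal cells, passed against sinusoidal but not arterial cells (adjusted p = 0.66). Igf1 stood at 62.5 and 57.3 CPM in capillary, 14.4 and 6.29 in arterial and 62 and 61.6 in sinusoidal cells. Of 18 BMP and TGF-beta genes, 4 were higher and 10 lower than in arterial cells (median log2 fold change -0.63) and 2 higher and 6 lower than in sinusoidal cells (median -0.25). Bmp2, Bmp4 and Bmp6 were at or below 10.5 CPM in capillary cells, with Bmp6 at 86.7 and 73.3 and Bmp2 at 54.9 and 69.1 in arterial cells. The latent TGF-beta binder Ltbp4 stood at 174 and 186 CPM in capillary, 691 and 890.5 in arterial and 53.7 and 60.1 in sinusoidal cells. The co-receptor Tgfbr3 stood at 46.2 and 47.5 CPM in capillary, 11.6 and 21 in arterial and 128 and 129.6 in sinusoidal cells.

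Guidance genes steer vessels and nerves. Of 16 tested, 6 were higher and 5 lower than in arterial cells (median log2 fold change 0.03) and 5 higher and 1 lower than in sinusoidal cells (median 0.11). Sema7a stood at 41.9 and 38.6 CPM in capillary, 92.5 and 119 in arterial and 4.88 and 3.95 in sinusoidal cells. Robo1 stood at 61.3 and 88.5 CPM in capillary, 11.6 and 10.5 in arterial and 56.5 and 52.2 in sinusoidal cells. Efna1 stood at 130.0 and 126 CPM in capillary, 513 and 492 in arterial and 129 and 111 in sinusoidal cells. Of 20 endothelial transcription factors, 5 were higher and 5 lower than in arterial cells (median log2 fold change -0.09) and 7 higher and 5 lower than in sinusoidal cells (median -0.10). Bcl6b stood at 114 and 129.5 CPM in capillary, 56.3 and 67 in arterial and 65.2 and 62.4 in sinusoidal cells. Mef2c stood at 423 and 430.1 CPM in capillary, 263 and 304 in arterial and 228 and 262 in sinusoidal cells, and both genes were highest in capillary cells in each library. Hlx stood at 66 and 56.4 CPM in capillary, 93.9 and 90.1 in arterial and 14.3 and 14.6 in sinusoidal cells. The broad endothelial factors Erg, Fli1, Tal1 and Tcf4 had log2 fold changes between -0.38 and 0.12, of which only that of Fli1 against sinusoidal cells passed.

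Of 12 genes of junctions and caveolae, 1 was higher and 5 lower than in arterial cells (median log2 fold change -0.38) and 4 higher and 2 lower than in sinusoidal cells (median 0.18). Cav1, the main coat protein of caveolae, formed a steep order, at 149 and 147 CPM in capillary, 858 and 805 in arterial and 22.3 and 28.8 in sinusoidal cells, and Jam3 was highest in capillary cells, at 48.5 and 51.4 CPM in capillary, 30.3 and 25.1 in arterial and 14.6 and 13 in sinusoidal cells. Jam3 passed the test against sinusoidal but not arterial cells, where Plvap was the 1 junction gene called higher. Among 15 matrix proteases and their inhibitors, 4 were higher and 1 lower than in arterial cells (median log2 fold change 0.32) and 4 higher and 3 lower than in sinusoidal cells (median -0.20). Plau, the urokinase, stood at 33.8 and 30.7 CPM in capillary, 1.44 and 2.1 in arterial and 34.5 and 47 in sinusoidal cells. Mmp14, a membrane-bound collagenase, stood at 308 and 318 CPM in capillary, 147 and 166 in arterial and 261 and 247 in sinusoidal cells. Adamts9 stood at 98.9 and 113 CPM in capillary, 40.5 and 44 in arterial and 95.2 and 93.3 in sinusoidal cells. Of 10 genes that respond to flow or stretch, 1 was higher and 4 lower than in arterial cells (median log2 fold change -0.38) and 2 higher and 5 lower than in sinusoidal cells (median -0.43). Over all tested genes the shares were 7.5% higher and 8.79% lower against arterial cells, and 10.9% and 12.5% against sinusoidal cells. The higher counts of 1 and 2 are read as no result about the list. Klf4 stood at 197 and 164 CPM in capillary, 348 and 444 in arterial and 462 and 445 in sinusoidal cells. Ccn1 stood at 53.5 and 71.2 CPM in capillary, 261 and 168 in arterial and 313 and 259 in sinusoidal cells, and both genes were lowest in capillary cells. Of 13 immediate early and heat shock genes, given below, 7 were also lower than in arterial and 11 lower than in sinusoidal cells. Their part in the flow list was not tested. Thbd, an anticoagulant receptor, stood at 256 and 233 CPM in capillary, 86.7 and 85.9 in arterial and 574 and 584 in sinusoidal cells.

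Among 15 genes of glycolysis and hypoxia, 1 was higher and 4 lower than in arterial cells (median log2 fold change -0.59) and 5 higher and 4 lower than in sinusoidal cells (median -0.06). Over all tested genes the shares were 7.5% higher and 8.79% lower against arterial cells, and 10.9% and 12.5% against sinusoidal cells. The 1 higher call against arterial cells is near that share and is read as no result about the list. Epas1, a hypoxia-inducible factor, stood at 312 and 304 CPM in capillary, 881 and 995 in arterial and 401 and 388 in sinusoidal cells. Gapdh stood at 965 and 903 CPM against 626 and 591 in sinusoidal cells. Against arterial cells Gapdh was not called, and Pkm was the 1 gene called higher. Among 8 fatty acid genes, 2 were higher and 1 lower than in arterial cells (median log2 fold change 0.17) and 3 higher and 4 lower than in sinusoidal cells (median -0.68). Beside the shares of 7.5% and 8.79% of all tested genes, the counts against arterial cells are read as no result about this list. Fabp4, a fatty acid binding protein, stood at 1254 and 816 CPM in capillary, 682 and 853 in arterial and 11519 and 9736 in sinusoidal cells, and its regulator Pparg at 34.9 and 26.7 CPM in capillary, 7.22 and 14.7 in arterial and 349 and 317 in sinusoidal cells. Gpihbp1, which carries lipoprotein lipase to the lumen, was highest in capillary cells, at 1043 and 863 CPM in capillary, 344 and 375 in arterial and 750.4 and 710.1 in sinusoidal cells.

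In the antigen presentation and stress lists, more genes were lower than higher in capillary cells. Of 14 MHC and interferon genes, 0 were higher and 10 lower than in arterial cells (median log2 fold change -0.73) and 1 higher and 5 lower than in sinusoidal cells (median -0.28). H2-K1, a class I molecule, stood at 223 and 201 CPM in capillary, 514 and 448 in arterial and 533 and 414 in sinusoidal cells (log2 fold change -1.22 ± 0.09 (SE), adjusted p = 3.8e-05, against the mean of both). B2m, its light chain, stood at 764 and 772 CPM in capillary, 865 and 905 in arterial and 1144 and 1149 in sinusoidal cells. Isg15 stood at 140.1 and 145 CPM in capillary, 299 and 325 in arterial and 110.1 and 96 in sinusoidal cells. Of 13 immediate early and heat shock genes, which rise when tissue is digested, 0 were higher and 7 lower than in arterial cells (median log2 fold change -0.60) and 0 higher and 11 lower than in sinusoidal cells (median -1.21). Fos stood at 436 and 434 CPM in capillary, 842 and 886 in arterial and 1703 and 1631 in sinusoidal cells. Zfp36 stood at 55.1 and 60.3 CPM in capillary, 121 and 168 in arterial and 263 and 245 in sinusoidal cells. Egr1 stood at 37.2 and 58.3 CPM in capillary, 134 and 136 in arterial and 104 and 123 in sinusoidal cells. Cells of all 3 populations were digested together in each library, and the part of digestion in these differences was not tested. Median mitochondrial shares were 4.66% and 4.91% in capillary, 4.50% and 4.85% in arterial and 4.67% and 4.80% in sinusoidal cells, and ribosomal protein genes took a median of 15.3% and 16.1%, 11.1% and 11.8%, and 12.8% and 13.8%. The part of these shares in the gene differences was not tested.

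Apln is known as a gene of sprouting cells, and members with at least 1 Apln UMI (144 and 89) were compared with the other members. Since Apln is a marker of the rule, members without it entered through at least 2 of the other 4 markers, and the split is not independent of the rule. Of 9043 genes tested, 41 (0.453%) passed, 10 (0.111%) higher and 31 (0.343%) lower with Apln, while 748 had an unadjusted p under 0.05. Cells with Apln were deeper, with median totals of 6619.5 and 7096 UMIs against 5850 and 6059.5, so detection of Apln and depth cannot be told apart cell by cell. Without the library as a block 1 gene passed, with DESeq2 6, and with cells thinned to 2000 UMIs 5.

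The rule, which asked for the same direction in both libraries, named 7 genes as higher with Apln. Ccnd1, which encodes cyclin D1, stood at 246 and 258 CPM with Apln and 165 and 139.5 without (log2 fold change 0.73 ± 0.13 (SE), adjusted p = 0.0028), and Myc, a transcription factor of growth, at 44.6 and 48.9 CPM with Apln and 15.7 and 29.7 without (log2 fold change 1.10 ± 0.26 (SE), adjusted p = 0.046). Mcm3, a subunit of the replication helicase, stood at 81.2 and 68.1 CPM with Apln and 44.6 and 43 without, the intermediate filament gene Nes at 205 and 179 CPM with Apln and 133 and 129 without, and Rflnb, a filamin-binding protein, at 160.3 and 198 CPM with Apln and 126 and 89.1 without. Fabp4 stood at 1450.0 and 1039 CPM with Apln and 1132 and 704 without, and its direction turned with the GFP library added (log2 fold change -0.066), where it was at 1171 CPM with Apln and 2878 without. Gadd45g, at 138 and 63.7 CPM with Apln and 50.3 and 46 without, had 38.4% of its replicate 1 UMIs in a single cell, and without Scrublet calls its log2 fold change was 0.17 (adjusted p = 0.89). Emcn did not pass, at 2376 and 2259.6 CPM with Apln and 2176 and 1964 without (adjusted p = 0.59).

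The 8 genes named as lower with Apln are known from cartilage or bone: Snorc, Col11a1, Col11a2, Spp1, Mgp, Mmp13, Pth1r and Tnc. Mgp, an inhibitor of calcification, stood at 18.3 and 17.8 CPM with Apln and 144 and 151 without. Spp1, which encodes osteopontin, stood at 60.9 and 111 CPM with Apln and 119 and 919.6 without, and Col11a1, a cartilage collagen, at 3.04 and 14.8 CPM with Apln and 27.6 and 143 without. The chondrocyte markers Col2a1 and Col10a1 were lower with Apln too, and their part in these results was not tested. The bone matrix gene Ibsp went the other way and was higher, at 59.9 and 714 CPM with Apln and 18.8 and 141 without, with 52.8 and 69.9% of its UMIs in a single cell of each library. A single cell of each library held 69.3 and 66.7% of the capillary UMIs of Mgp and 45.8 and 80.4% of those of Spp1. Without marker-rich cells, Snorc, Col11a1, Col11a2, Pth1r and Tnc were too rare to be tested, Spp1 and Mmp13 had log2 fold changes of 0.0048 and 0.43, and Mgp was lower by edgeR's test (-1.17, adjusted p = 0.018). Igfbp3 stood at 174 and 129 CPM with Apln and 254 and 234 without (log2 fold change -0.68 ± 0.13 (SE), adjusted p = 0.009), Efnb2 at 86.3 and 99.2 CPM with Apln and 144 and 159 without (log2 fold change -0.70 ± 0.14 (SE), adjusted p = 0.011) and Sox17 at 77.1 and 68.1 CPM with Apln and 131 and 105 without (log2 fold change -0.70 ± 0.15 (SE), adjusted p = 0.026). Of the 18 arterial genes tested here, 4 were lower (Efnb2, Sox17, Mgp and Cxcl12), 0 higher and the others not called, and Igfbp3 is not on that list. Over all genes tested in this split, 0.343% were lower and 0.111% higher. Among the compared populations Mgp was highest in sinusoidal cells, and the Cxcl12 call was lost without Scrublet calls (log2 fold change -0.08, adjusted p = 0.96 by edgeR) and without marker-rich cells (-0.30, adjusted p = 0.64). Dll4 did not pass, at 47.7 and 26.7 CPM with Apln and 62.8 and 65.3 without.

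**Figure D5:**
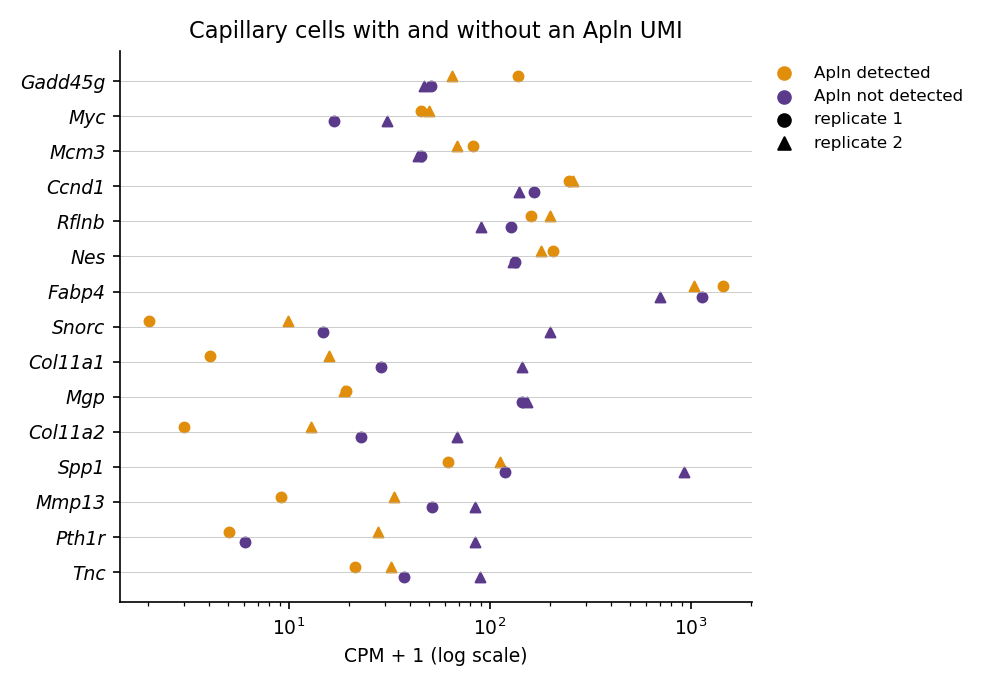
Levels as CPM plus 1 (log scale) of the genes named in capillary cells with (orange) and without (purple) an Apln UMI, where circles are replicate 1 and triangles replicate 2. The 7 upper genes were named as higher with Apln by a rule that asked for that direction in both libraries, and Snorc, Col11a1 and Spp1 are far apart between replicates among cells without Apln.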

How the data were processed

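Single-cell suspensions of metaphysis from long bone gave 2 libraries, and a Pdgfra-GFP sort gave another. Per the labels and the study's methods, the authors aligned reads with STARsolo to mm10 and deposited unfiltered UMI counts per gene and barcode. Barcodes passed as cells from 1500 detected genes upwards (1000 for the GFP library) with at most 15% mitochondrial and at most 30% ribosomal counts. EmptyDrops was not used here. Scrublet calls were counted but kept in the main comparison.

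Counts were summed per library and gated population and tested with edgeR 4.0.16 (quasi-likelihood, TMM, filterByExpr, Benjamini-Hochberg adjustment, threshold 0.05) in R 4.3.3, with the library as a block because the populations of a library share a suspension. Deviations of same-library sums from the population means correlated at -0.04 (capillary and arterial), 0.10 (capillary and sinusoidal) and -0.02 (arterial and sinusoidal). The fit of the gated populations had 2 residual degrees of freedom and that of the Apln split 1. The 25 gate genes were not tested. Named genes were the 10 most changed per direction and contrast (8 for Apln) at 20 CPM or more that moved the same way in both libraries (against the mean, relative to both populations), passing over gate, mitochondrial, ribosomal protein, Gm and Rik genes and other-cell-type markers, with examples from fixed lists. Members and lists were chosen with earlier results of these data known. The procedure was tested on simulated data. Gene positions are GRCm38. Alternatives were DESeq2 1.42.0, its size factors, no filter on low counts, no block, thinning to 2000 UMIs, other gates and cell filters, and, chosen after seeing the data, addition of the GFP library. Intervals cover counting error only.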

Additional observations from a re-analysis of the deposited data

Results flagged for a closer look

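The Pdgfra-GFP library, which entered the comparisons only as an added alternative, held 72 cells that passed the capillary gate, of 366 endothelial cells and 11242 kept cells. This is 0.640% of kept cells, and it is given as a signal outside the libraries that the main comparisons use. In these cells Emcn stood at 1810 CPM and Kcne3 at 333 CPM. Stromal markers summed to 6197 CPM, chondrocyte markers to 4429 and osteoblast markers to 2149.7 CPM, against 499 and 902, 59.8 and 1030, and 93.1 and 386 in the metaphyseal members. Scrublet called 4 of them (5.56%) doublets, against 8 (1.99%) and 5 (1.63%) of the members. Its expected doublet rate was set from the number of cells in each library, so these shares are not directly comparable. The part of doublets in the levels was not tested. The library shared 9 and 10 barcodes with metaphyseal replicates 1 and 2, of which 3 and 2 were capillary members there.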

How the results depend on the processing

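Over 425 named results and 4431 tested alternatives, 4212 kept their side of the threshold, 151 lost the call and 61 gained it. Another 7 changed sign with a call in the main or the alternative fit. Sign changes with no call in either fit fell among the 4212 and were not counted apart. With the DESeq2 Wald test the called genes were 734 against the mean of both populations, 1048 against arterial and 1004 against sinusoidal cells and 6 in the Apln split, and with cells thinned to 2000 UMIs 823, 917, 1518 and 5. The Apln split gave 75 calls with no filter on low counts, 72 without Scrublet calls and 95 with cells of at least 1000 genes. Without the replicate block it gave 1 call, and the other comparisons gave 1433, 1778 and 2470. The capillary share of 33.8% was 28.7% with a gate of 3 markers, 30.8% thinned and 37.8% with cycling cells kept. Among the 7 with a call, signs changed for Tfpi (0.051) and Unc5b (0.15) against the mean of both when thinned. When thinned, signs also changed for Cxcl12 against sinusoidal cells (0.69), and of these genes only Cxcl12 passed the thinned test. Without marker-rich cells they changed for Cxcr4 against the mean (0.0065) and, in the Apln split, for Mmp13 (0.43) and Spp1 (0.0048), and with the GFP library added for Fabp4 (-0.066) in the Apln split. The cause was not tested. Without either library no residual degrees of freedom are left, so counts of calls could not be fitted. Of 850 single-library log2 ratios, 574 lay no further from the fitted value than the spread between libraries. That spread was taken from the same ratios, so this count cannot show stability. The signs of these ratios say nothing of stability either, since genes named by rank had to move the same way in both libraries. At this depth, values of genes with few UMIs in a sum are imprecise, as in the arterial sums (692169 and 477271 UMIs).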

Other observations

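Endothelial cells that passed no gate (122 and 91) carried Emcn at 1698 and 1441 CPM, between the capillary and sinusoidal levels, and Aplnr at 654 and 700 CPM. Lrrc55 stood at 52.3 and 57.6 CPM in them. Stromal markers summed to 28533 and 11095 CPM there, and their part in these levels was not tested.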
